A study of Homo sapiens with 2 samples.

Results

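The U1 small nuclear RNA genes were examined in an RNA sequencing study of A375 cells, an established human melanoma line labelled wild type. The 2 samples are an unirradiated control (0 Gy) and cells that received 8 Gy of ionizing radiation. The members were the rows whose gene symbol begins with RNU1- or RNVU1-, which were 10 of 3576 rows in the authors' deposited table of non-coding RNAs. That table sets 1 library against another, with a log2 fold change and the p- and q-values that go with it. Its 2 columns of per-sample values carry names that match neither sample's labels, so they were not used, no value per library is given, and which library received the dose is not said of any difference. The libraries are called the numerator and the denominator library after their place in the fold change, and no label used here says that they are these samples. With no replicates, no difference has a replicate check, and the deposited p-values compare these libraries, not the doses.

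U1 is the RNA core of the U1 snRNP, the particle that recognises the 5′ splice site of introns by base pairing with the 5′ end of U1, and that also protects transcripts from premature cleavage and polyadenylation. Genes named RNU1- encode the canonical U1. Genes named RNVU1- were described as variant U1 genes, and some of them carry base changes in the stem-loops that bind the U1-specific proteins U1-70K and U1A. U1 is transcribed by RNA polymerase II and has no poly(A) tail, while the labels name an mRNA-Seq library kit applied to total RNA.

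The sequences are shown first because rows with the same sequence have different values. GENCODE 29 transcripts, matched by RefSeq identifier and version, supplied a sequence for 9 of the 10 rows, and RNVU1-8 (NR_121645.1) is the other. RNU1-1, RNU1-2, RNU1-3, RNU1-4 and RNVU1-18 have the same sequence, base for base, so RNVU1-18 is a variant by name and canonical by sequence. In the line for RNU1-1, capitals mark, from left to right, the letters that pair with the consensus 5′ splice site, the loop that binds U1-70K, the loop that binds U1A and the Sm site, where the ring of Sm proteins assembles. In the other 4 lines, capitals mark bases that differ from RNU1-1 or are inserted against it, and letters are given as DNA.
RNU1-1, RNU1-2, RNU1-3, RNU1-4 and RNVU1-18: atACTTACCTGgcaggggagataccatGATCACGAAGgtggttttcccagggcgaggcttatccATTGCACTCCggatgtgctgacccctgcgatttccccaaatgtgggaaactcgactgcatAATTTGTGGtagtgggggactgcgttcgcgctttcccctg
RNVU1-7: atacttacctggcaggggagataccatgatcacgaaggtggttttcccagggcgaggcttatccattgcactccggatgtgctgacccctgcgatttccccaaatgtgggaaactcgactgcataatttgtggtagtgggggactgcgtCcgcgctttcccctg
RNVU1-6: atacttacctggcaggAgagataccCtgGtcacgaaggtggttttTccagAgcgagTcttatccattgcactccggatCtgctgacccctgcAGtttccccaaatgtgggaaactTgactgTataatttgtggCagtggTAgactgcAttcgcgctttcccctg
RNVU1-14: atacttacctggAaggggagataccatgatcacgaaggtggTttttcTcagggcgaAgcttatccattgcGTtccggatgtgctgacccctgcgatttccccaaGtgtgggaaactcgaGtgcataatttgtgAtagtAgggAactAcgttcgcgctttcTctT
RNVU1-15: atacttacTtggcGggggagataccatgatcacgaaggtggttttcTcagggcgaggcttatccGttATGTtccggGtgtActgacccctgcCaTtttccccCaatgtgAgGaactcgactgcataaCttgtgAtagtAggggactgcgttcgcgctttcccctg

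RNVU1-7 differs from the canonical sequence by 1 substitution, T150C, with positions counted from 1 at the 5′ end of RNU1-1, and is 99.4% identical to it. RNVU1-14 has 13 substitutions, 1 inserted and 1 missing base and is 90.9% identical. RNVU1-6 has 15 substitutions and is also 90.9% identical. RNVU1-15 has 17 substitutions and 1 inserted base and is 89.1% identical. The variants resemble the canonical RNA more than one another: RNVU1-6 and RNVU1-15 are 81.2% identical, and RNVU1-14 and RNVU1-15 86.1%.

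All 9 genes with a sequence lie on chromosome 1 in GENCODE 29 (GRCh38), in 2 clusters, and each is annotated as an exon of an snRNA gene. The 4 RNU1- genes lie in the first cluster, RNU1-1 at chr1:16514122-16514285 and RNU1-3 at chr1:16666785-16666948 on the minus strand, RNU1-4 at chr1:16740516-16740679 and RNU1-2 at chr1:16895980-16896143 on the plus strand. The 5 RNVU1- genes lie in the second, RNVU1-18 at chr1:143729407-143729570, RNVU1-6 at chr1:146052081-146052244 and RNVU1-7 at chr1:148038753-148038916 on the minus strand, RNVU1-15 at chr1:144412576-144412740 and RNVU1-14 at chr1:145281116-145281279 on the plus strand. The build of the deposited values is not usable here, since mm10, a mouse build, is the one named in the submitters' processing notes, and the table's symbols are human.

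Canonical copies had values far apart and in opposite directions although their sequence is the same. RNU1-2 (NR_004427.1) has a log2 fold change in the authors' deposited table of 2.06, which is 4.18-fold higher in the numerator library, with p and q both listed as 0. RNVU1-18 (NR_004400.1) has 1.99 in the authors' deposited table, 3.97-fold higher, with p = 5e-102 and q = 6.92e-99. RNU1-1 (NR_004430.2) has -2.81 in the authors' deposited table, a fold of 0.143, with p and q both listed as 0. These 3 rows thus hold the same letters, and they differ by up to 4.87 on the log2 scale, the distance from RNU1-1 to RNU1-2.

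The other canonical copies lay between them. RNU1-3 (NR_004408.1) has 0.04 in the authors' deposited table, with p = 0.0937 and q = 1. RNU1-4 (NR_004421.1) has -0.71 in the authors' deposited table, 1.64-fold lower, with p = 1.22e-10 and q = 7.76e-08. Over the 5 identical rows the median log2 fold change was 0.04, with 3 values above 0 and 2 below. The nearest in value, RNU1-2 and RNVU1-18, lie in different clusters, and the 4 copies of the first cluster hold both the highest and the lowest value.

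RNVU1-7 (NR_004426.2), which has the single changed base, has the lowest log2 fold change of all 3576 rows, -5.17 in the authors' deposited table, with p = 6.63e-190 and q = 1.1e-186. It was 36.1-fold lower in the numerator library. The changed base, T150C, lies outside the 4 elements marked in RNU1-1. A read that covers it differs there from a canonical one.

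The 4 remaining RNVU1- rows lay close together and near 0, though RNVU1-8 has no sequence here and is a variant by name only. RNVU1-14 (NR_104075.1) has -0.03 in the authors' deposited table, RNVU1-15 (NR_104076.1) has -0.11, RNVU1-6 (NR_104085.1) has -0.17 and RNVU1-8 has -0.18. Their range was 0.15 on the log2 scale, against 4.87 over the identical copies and 7.24 once RNVU1-7 is included with these. All 4 have q = 1 in the authors' deposited table. Relative to the median over all RNAs, 0.16, they lay between -0.34 and -0.20.

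**Figure D1:**
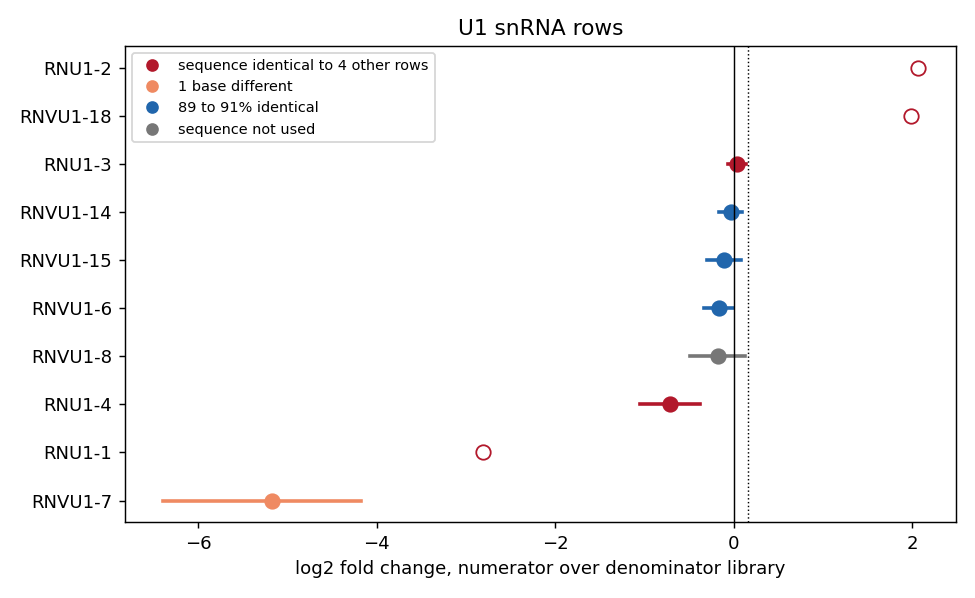
Log2 fold change (x axis) of the 10 U1 rows (y axis), coloured by sequence class. Lines are exact 95% counting intervals from the smallest read pair, open circles are the 3 rows with no such pair, the solid vertical line is 0 and the dotted one the median of all RNAs, 0.16. Identical copies run from -2.81 to 2.06, and RNVU1-6, RNVU1-8, RNVU1-14 and RNVU1-15 from -0.18 to -0.03.

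The reads behind these values could be limited from below. The most frequent log2 fold change of the table, 0.14, was taken as that of equal read numbers, and each fold change was then written as the smallest pair of whole numbers that gives it, up to 3000. The reads themselves can be the pair or a whole multiple of it. The exact (Clopper-Pearson) 95% intervals on the pair cover counting error only, since there are no replicates. PCR copies of a molecule are counted like separate molecules, which the intervals do not allow for. A pair was found for 7 of the 10 rows, and RNU1-1, RNU1-2 and RNVU1-18 have none, so that no interval is given for these 3.

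RNVU1-7 rests on at least 8 reads in the numerator library against 317 in the denominator library. The interval on that pair is 18.1-fold to 84.3-fold lower. RNU1-4 rests on at least 119 against 214 reads, a fold of 0.611 with an interval of 0.484 to 0.768. RNU1-3 rests on at least 1588 against 1701 reads, a fold of 1.03 with an interval of 0.957 to 1.10. The intervals of RNU1-3 and RNU1-4, 2 copies with the same letters, do not overlap. All these intervals take the reads of each row as its own. They do not cover how reads were divided among identical copies, or between these and RNVU1-7. A difference between the copies themselves cannot be read from them.

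RNVU1-14 had at least 887 against 997 reads and a fold of 0.977 (0.892 to 1.07). RNVU1-15 had at least 433 against 512 reads and a fold of 0.929 (0.815 to 1.06). RNVU1-6 had at least 545 against 672 reads and a fold of 0.891 (0.794 to 0.999). RNVU1-8 had at least 160 against 199 reads and a fold of 0.883 (0.713 to 1.09). In the order of the fold changes, RNVU1-8, RNVU1-6, RNVU1-15, RNVU1-14 and RNU1-3 have intervals that overlap with each neighbour, and so are not ordered by these intervals, which would be narrower with more reads than the pair. The interval of RNU1-4 also overlaps that of its neighbour RNVU1-8, but lies below that of RNVU1-6, and the interval of RNVU1-7 lies below them all.

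A difference of 2-fold or more was found in 4 of the 10 rows. It was upward in the numerator library in 2, where the share over all RNAs was 16.3%, and downward in 2, where it was 6.35%. Of the 10 rows 5 have q under 0.05 in the authors' deposited table, against 0.839% of all rows. These are 2 of 18 such rows that are higher (0.503% of the table) and 3 of 12 that are lower (0.336%). They are RNVU1-7 and the canonical copies other than RNU1-3. The median over the 10 rows was -0.14, or -0.30 after subtracting that of all RNAs, and it describes neither end of the range. The deposited p-values are not centred on a log2 fold change of 0: the 105 RNAs with p above 0.98 have a median log2 fold change of -0.13, which is close to where the 4 variants lie.

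**Figure D2:**
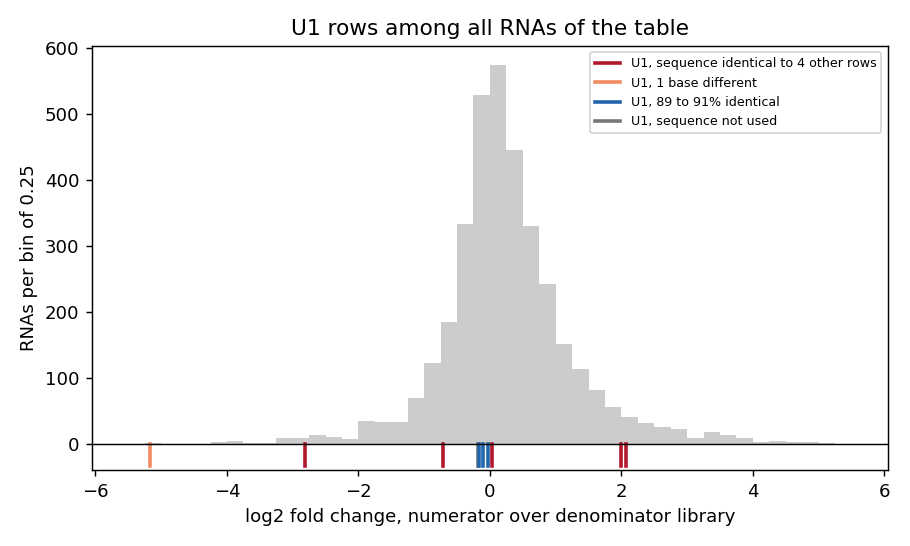
Number of RNAs (y axis) per bin of log2 fold change (x axis) for all 3576 rows, with the 10 U1 rows as coloured ticks below the axis. RNVU1-7 at -5.17 is the lowest row of all, while RNU1-2 at 2.06 ranks 173 from the top.

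How far a read could be placed was measured from the sequences alone, by cutting each into overlapping windows of 50 bases and searching each window on the sense strand of the other U1 rows. Neither the read length nor the treatment of reads with several possible sources is stated in the labels or headers. Each canonical copy has 115 windows, and 0 of them are its own. RNVU1-7 has 15 of 115 windows (13.0%) of its own, those that cover the changed base. For RNVU1-6 and RNVU1-14 all 115 windows are their own, as are all 116 of RNVU1-15.

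GENCODE 29 holds 8 transcripts with the canonical sequence, of which 5 have a row here and 3, RNU1-27P, RNU1-28P and a transcript named RF00003, have no row among the 3576 used here. Searched in all GENCODE 29 transcripts, RNVU1-6, RNVU1-7 and RNVU1-15 keep the same numbers of windows of their own. RNVU1-14 keeps 0, because a longer lincRNA of 347 bases, AC245014.3, starts at the same base on the same strand and contains it whole. The value of RNVU1-14 may therefore include reads of that transcript.

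**Figure D3:**
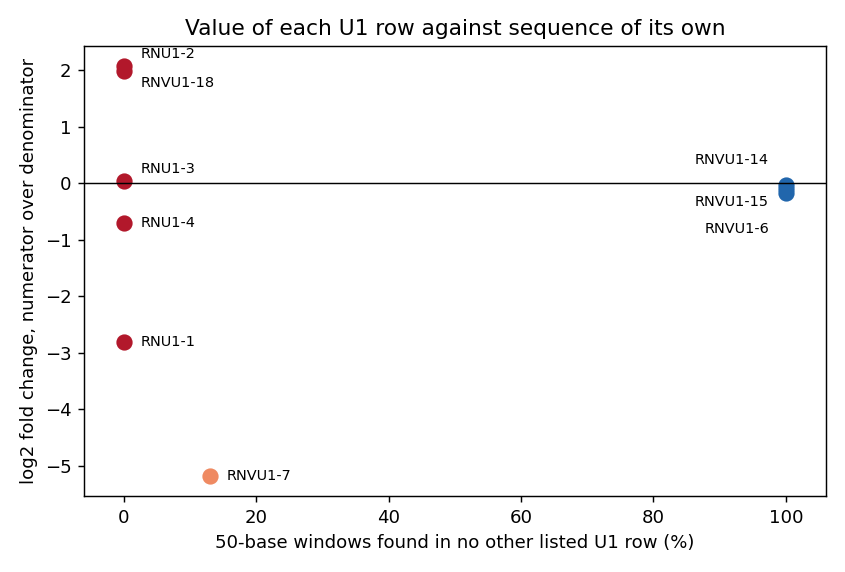
Log2 fold change (y axis) of the 9 U1 rows with a sequence against the share of their 50-base windows found in no other U1 row (x axis, percent). The 5 rows at 0% spread from -2.81 to 2.06, RNVU1-7 lies at 13.0% and -5.17, and the 3 rows at 100% lie between -0.17 and -0.03.

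The single copies were thus given different values for letters they share. A value summed over the 5 identical rows would not depend on how reads were divided among those rows, though it would on reads shared with RNVU1-7 and with the 3 identical transcripts that have no row here. That sum needs a value per library for each row and was not computed, since the 2 per-sample columns were not used. A ratio of sums must lie between the lowest and the highest single ratio. For the identical copies these are 0.143-fold and 4.18-fold, so the deposited fold changes do not fix whether canonical U1 as a whole was higher or lower in the numerator library. The part that the division of reads among copies had in the single values was not tested.

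The elements of U1 that bind its target and its proteins were read from RNU1-1 at their known places and searched in the 9 sequences, on both strands. Matches on the sense strand are given here, and no antisense match was found in any of the 9. The letters ACTTACCTG, which pair with the consensus 5′ splice site, stand at positions 3 to 11 in 8 of 9, and RNVU1-15 has ACTTACTTG there (C9T). Among 348 GENCODE 29 transcripts of 160 to 170 bases, 9.20% hold ACTTACCTG. The loop that binds U1-70K, GATCACGAAG, stands at positions 28 to 37 in 8 of 9 and in 7.76% of the 348, and RNVU1-6 has GGTCACGAAG (A29G).

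The loop that binds U1A, ATTGCACTCC, stands at positions 65 to 74 in 7 of 9 and in 8.05% of the 348. RNVU1-14 has ATTGCGTTCC there (A70G and C71T), and RNVU1-15 has GTTATGTTCC (A65G, G68A, C69T, A70G and C71T). The Sm site AATTTGTGG stands nearer the 3′ end in 7 of 9 and in 16.1% of the 348. RNVU1-14 has AATTTGTGA there (G133A) and RNVU1-15 has AACTTGTGA (T127C and G133A). The searched letters do not overlap one another, and the 348 transcripts include the U1 genes themselves. RNVU1-6, RNVU1-14 and RNVU1-15 each lack at least 1 of the 4 exact matches. RNVU1-14 and RNVU1-15 both lack those of the U1A loop and the Sm site, and RNVU1-15 also lacks ACTTACCTG. RNVU1-6 has all of these and lacks only GATCACGAAG. The log2 fold changes of RNVU1-6, RNVU1-14 and RNVU1-15 in the authors' deposited table are -0.17, -0.03 and -0.11. Whether the changed elements bear on these values was not tested.

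Other snRNAs were set beside U1. Of 20 names for the U2, U4, U5, U6, U7 and minor spliceosomal snRNAs, 16 had a row, with a median log2 fold change of 0.02, 8 values above 0 and 8 below. Past 2-fold, 1 of the 16 was upward and 1 downward, against 16.3% and 6.35% of all rows. U4 pairs with U6 to hold it inactive, U5 aligns the exons, and U11, U12, U4atac and U6atac serve the minor spliceosome. These 11 rows, which are at most 97.2% identical to another, ran from -0.27 for RNU4ATAC to 0.23 for RNU5F-1. In the authors' deposited table RNU4-1 (log2 fold change -0.01, q = 0.00510) and RNU5A-1 (0.06, q = 0.00986) are the 2 of 16 with q under 0.05, against 0.839% of all rows.

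U6, the catalytic RNA of the spliceosome, is encoded by near-identical genes as U1 is, and its rows spread as well. RNU6-1, RNU6-2 and RNU6-9 have the same sequence, and so do RNU6-7 and RNU6-8. RNU6-1 has 2.46 in the authors' deposited table, with 5 reads against 1 as its smallest pair, and RNU6-7 has -2.86 there, with 1 against 8, where a 1 may stand for 0 reads. Their intervals, 0.615-fold to 259.8-fold and 0.00309-fold to 1.02-fold, both include 1. RNU6-9 had 0.87, RNU6-8 -0.19 and RNU6-2 -0.34 in the authors' deposited table, also with intervals that include 1. The true reads may exceed these pairs, and the part of counting error in the spread of the U6 rows was not tested.

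**Figure D4:**
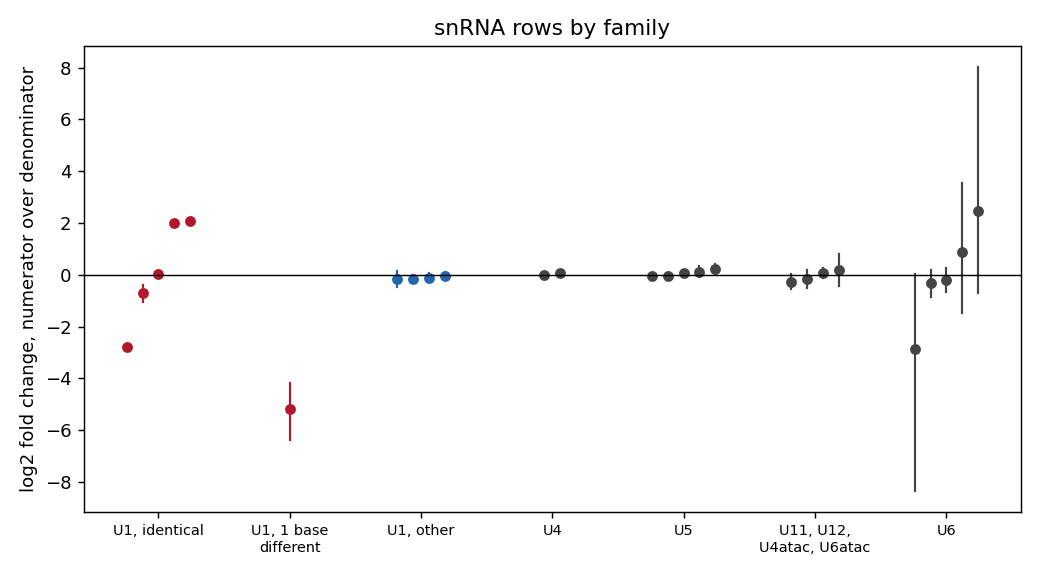
Log2 fold change (y axis) of snRNA rows by family (x axis), with exact 95% counting intervals where a read pair was found. The identical U1 copies and RNVU1-7 spread over 7.24, the other U1 rows over 0.15, and the U4, U5 and minor snRNAs from -0.27 to 0.23. U6 rows spread from -2.86 to 2.46 with wide intervals.

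Across the table, 32 rows with a GENCODE 29 sequence shared it exactly with another row, in 14 groups. The groups of LINC00960 and of SNHG17 each hold rows with the same gene symbol. Those rows are not shown to be separate gene copies. The canonical U1 group had a range of 4.87 on the log2 scale, and the 13 others had ranges from 0.08 to 2.79, the upper end being RNU6-1, RNU6-2 and RNU6-9. Of the 27 rows in groups other than U1, 0 have q under 0.05 in the authors' deposited table, against 4 of the 5 canonical U1 rows and 0.893% of the 2912 rows with no identical partner. Read numbers were not matched in this comparison. The 27 include RNU6-1 and RNU6-7, with smallest pairs of 5 against 1 and 1 against 8 reads. Of the canonical rows with q under 0.05, RNU1-4 has 119 against 214, and the others have no pair up to 3000. Of these 27 rows 14.8% were past 2-fold in either direction, against 23.7% of the 2912.

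Of 17 names of RNAs made by RNA polymerase III, among them U6, whose promoter is related to that of U1, 16 had a row, with a median of -0.23. Past 2-fold, 2 of the 16 were upward and 3 downward, against 16.3% and 6.35% of all rows. The upward rows, RNU6-1 and RNY5, have smallest pairs of 5 against 1 and 28 against 13 reads. The downward rows, RNU6-7, VTRNA1-2 and VTRNA1-1, have 1 against 8, 3 against 13 and 4 against 9. The intervals of RNY5 and VTRNA1-2 exclude 1, and those of the others include it. RNU6-1 and RNU6-7 are also the rows past 2-fold among the other snRNAs above. Of the 16, 4 rows have q under 0.05 in the authors' deposited table, against 0.839% of all rows. These are RN7SK (log2 fold change -0.27), RMRP (-0.22), RPPH1 (-0.27) and, in the other direction, RNY4 (0.69). RNY4 has a smallest pair of 269 against 183 reads, and the others have no pair up to 3000. Lineage RNAs were used to check the label: all 5 melanoma lncRNAs had a row, from -0.30 for BANCR to 0.23 for SPRY4-IT1, as did 0 of 4 blood, 1 of 5 fibroblast and endothelial and 2 of 4 epithelial RNAs. These last 3, MIR503HG, LINC00511 and TINCR, lay between -0.10 and 0.12. The smallest pairs of TINCR, 213 against 215 reads, and LINC00511, 147 against 173, lie above that of the melanoma lncRNA MIR31HG, 48 against 47. They lie below those of the other melanoma lncRNAs, and MIR503HG has 14 against 15. Having a row does not by itself separate the lineages.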

How the data were processed

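Per the labels' protocols, libraries were prepared from total RNA of A375 cells with a kit for mRNA, 1 for 0 Gy and 1 for 8 Gy. For 3576 RNAs the authors deposited 3 values, per the file headers: the log2 fold change, its p-value and its q-value. The submitters' processing notes name mm10 and nothing else, and the aligner, counter, strand setting and test are not stated in the labels or headers. The table has 2 further columns, named unlike any sample label, which were not used. Depth per library is therefore unknown.

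From the deposited log2 fold changes, folds, counts past 2-fold, ranges and medians were computed. Smallest whole-number read pairs up to 3000 were searched within a relative tolerance of 1.5e-09, which gave a pair for 3535 RNAs (98.9%). On simulated data 100% of 3500 pairs were recovered, and 0.66% of 5000 random values were given a pair. Identity is the share of equal columns in a global alignment (biopython 1.88; match 1, mismatch -1, gap opening -2.5, extension -0.5) of GENCODE 29 transcripts. All U1 rows are named, and of the other snRNAs those with q under 0.05 and the extremes. No likeness of patterns was computed, since each RNA has 1 value. The members and lists were chosen with earlier results of these data known, and the read pairs and windows were devised after the data were seen. Alternatives were another threshold, another value of no change, 1 value per sequence and another definition of a copy. The other tools were scipy 1.17.1, pandas 2.3.3, numpy 2.4.6 and matplotlib 3.10.9, under Python 3.11.15.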

Additional observations from a re-analysis of the deposited data

How the results depend on the processing

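A 4-fold threshold left 1 U1 row higher (RNU1-2) in place of 2, since RNVU1-18 lies just under it, and the count of 2 lower rows held. Subtracting the median of all RNAs, 0.16, or the most frequent value, 0.14, kept both counts at 2. The median over U1 rows moved from -0.14 to -0.30 with the first subtraction, by its construction, and was -0.14 with 1 value per distinct sequence. The first subtraction also puts RNU1-3 at -0.13. Counting copies at 99% identity gave 6 rows in place of 5 and a range of 7.24 in place of 4.87, by adding RNVU1-7, and cutting all to the shortest sequence gave 5. Without the rows at least 99% identical to another, 0 of the 4 U1 rows left have q under 0.05 in the authors' deposited table, in place of 5 of 10. The 4 include RNVU1-8, which has no sequence here, so its identity to other rows is unknown. Windows of 25 or 100 bases also left 5 rows with none of their own, and all GENCODE 29 transcripts left 6, with RNVU1-14. Searching whole numbers up to 10000 found a pair for 8 U1 rows in place of 7. The share of random values given a pair was measured at the limit of 3000 only. The last 3 alternatives and that on q were chosen after seeing the data. No paired analysis was possible because each dose has a single library. The planned sums over canonical and variant copies were not run, since the 2 per-sample columns of the deposited table were not used. Depth per library is unknown, and the smallest pairs of RNU6-1 and RNU6-7 hold 1 read in a library, which leaves their intervals wide.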
